A study of Mus musculus with 12 samples.

Results

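Proteasome genes were read in mouse thymocytes that lacked MED23, a Mediator subunit that links transcription factors to RNA polymerase II, and in control thymocytes. They were chosen by symbol as the genes named *Psma* to *Psmg* followed by a digit, each with 1 probe set, namely the one with the highest mean signal over all arrays. The rule took 46 of the 8252 genes on the array that have a probe set with 1 symbol. *Psmc3ip*, a meiotic recombination factor, and *Psme3ip1*, which encodes a PSME3-interacting protein, match the rule by name alone, so 44 genes encode subunits, activators or assembly chaperones. All 44 passed the filter on low signals, as did *Psme3ip1*, whereas *Psmc3ip* did not. *Psme2*, the partner of *Psme1*, was measured only by 2 probe sets that also carry the symbol *Psme2b*, and it was not read.

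The proteasome degrades proteins marked with ubiquitin. Its 20S core is a barrel of alpha and beta subunits, of which the beta subunits PSMB5, PSMB6 and PSMB7 cut the substrate, and the 19S particle at either end recognises, unfolds and admits it. In lymphoid cells, and in other cells under interferon gamma, PSMB8, PSMB9 and PSMB10 take the places of PSMB5, PSMB6 and PSMB7. The resulting immunoproteasome, often capped by the PA28 activator of PSME1 and PSME2, cuts peptides suited to MHC class I molecules.

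Total thymocytes of 6 female mice, C57Bl/6 x 129Sv (F1) and 6 to 7 weeks old, were hybridized to the A array of the Affymetrix mouse U74 set, Version 2. MED23 null thymocytes came from 2 *Med23flox/flox;Lck-Cre* mice, and the controls were 2 *Med23+/+;Lck-Cre* mice, which carry the Cre transgene alone, and 2 *Med23flox/flox* mice, which carry the floxed alleles alone. The *Lck-Cre* transgene deletes late in the double negative stage of T-cell development, so that earlier thymocytes and cells of other lineages keep *Med23*. After a rest of 4 h, cells from every mouse spent 3 h either on plates coated with αCD3, an antibody to the T-cell receptor complex, or without it (mock), which gave 12 arrays.

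Values are MAS5 signals, a summary of probe brightness on a linear scale, and induction is the difference, αCD3 minus mock, in log2(signal + 50) within a mouse. All log2 differences and folds refer to this scale unless plain signals are named, and the added 50 understates differences of dim genes. Differences were tested with limma, and adjusted p-values (Benjamini-Hochberg, threshold 0.05) refer to the 9478 probe sets that reached a mean signal of 100 in at least 1 of the 6 conditions. Control values are given in the order *Lck-Cre* replicates 1 and 2, then *Med23flox/flox* replicates 1 and 2. Arrays of 1 group come from separate mice, with 2 MED23 null mice in each comparison.

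*Med23* itself had signals of 252 and 239 in MED23 null and of 310, 425, 489 and 381 in control thymocytes after αCD3, and of 268 and 207 in MED23 null and of 424, 368, 288 and 381 in control thymocytes after mock treatment. The groups did not overlap in either treatment, but neither difference passed the test (log2 difference -0.59, adjusted p = 0.738, and -0.53, adjusted p = 0.621, limma). Whether these probes lie in the deleted exons is not given in the sources used here. The αCD3 array of *Med23flox/flox* replicate 1 stood apart, with a lower quartile of signal of 85.2 against at most 58.2 on the other arrays and a mean correlation with the others of 0.928 against 0.952 to 0.957. Of 15 listed thymocyte genes, 11 had a probe set and all 11 passed the filter. Their summed signal was lower in MED23 null cells, at 101258 to 106513 against 119124 to 124601 in control cells after mock treatment and at 104066 to 107548 against 109690 to 111583 after αCD3. The brightest genes, *Rag1*, *Dntt* and *Cd8b1*, weigh most in this sum. By log2 difference, 2 of the 11 genes, *Cd4* and *Thy1*, were above 0 after mock treatment (median -0.16). After αCD3, 3 of the 11 were above 0 (median -0.09), and the widest difference was that of *Thy1*, at 0.55. The summed signal of the NK and cytotoxic list (6 of 8 genes with a probe set) was 3883 to 4891 in MED23 null against 1775 to 2158 in control cells after αCD3, and 3884 to 5521 against 1485 to 2048 after mock treatment. This lay mostly in *Gzma*, since the other 5 genes summed to 615 to 639 in MED23 null and to 375 to 791 in control cells after αCD3. The erythroid list (6 of 9 genes) summed to 16421 to 38902 in MED23 null against 6721 to 15802 in control cells after αCD3, and to 15350 to 37630 against 6918 to 17374 after mock treatment, where the groups overlapped. Most of it was *Hba-a1*, and its other 5 genes summed to 1035 to 1621 in MED23 null against 786 to 840 in control cells after αCD3. Thymic epithelial genes (9 of 10) summed to 877 to 955 in MED23 null against 988 to 1232.5 in control cells after αCD3. After mock treatment they summed to 945 to 993 against 1004 to 1507, and only 3 passed the filter. Of these 3, 2 were above 0 by log2 difference after αCD3 and 0 after mock treatment. B cell and MHC class II genes (9 of 10) summed to 10558 to 10617 against 8073 to 10155 after αCD3 and overlapped after mock treatment. By log2 difference after αCD3, 4 of their 8 tested genes were above 0 (median -0.07), with *H2-Ab1* at -0.32 and *Ighm* at 0.30. Dendritic and myeloid genes overlapped after αCD3 and summed to 4550 to 4592 against 4288 to 4541 after mock treatment. No marker was listed at 0. The part of these differences in the results below was not tested, and in total thymocytes fewer cells of a type and less RNA per cell cannot be told apart.

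Promoters are shown for *Psmb9*, an immunoproteasome gene, and *Psmb6*, the constitutive gene whose product it replaces, and for *Psme3* and *Psmg1*, which had the widest differences in induction between genotypes. The windows run from 250 bases before to 50 bases after the start of the gene and come from RefSeq (GRCm38.p6), in which 37 of the 44 genes had a window. They lie at chr17:34187281-34187580 on the minus strand for *Psmb9*, at chr11:70525107-70525406 on the plus strand for *Psmb6*, at chr11:101315963-101316262 on the plus strand for *Psme3* and at chr16:95990911-95991210 on the minus strand for *Psmg1*. Capitals mark, on either strand, CCAAT, the ETS word CCGGAAG, the GAS word TTCNNNGAA bound by STAT factors and the core TGANNNNGC of the antioxidant response element. In *Psmg1* a GAS word and an antioxidant core overlap and are written as 1 run.
Psmb9: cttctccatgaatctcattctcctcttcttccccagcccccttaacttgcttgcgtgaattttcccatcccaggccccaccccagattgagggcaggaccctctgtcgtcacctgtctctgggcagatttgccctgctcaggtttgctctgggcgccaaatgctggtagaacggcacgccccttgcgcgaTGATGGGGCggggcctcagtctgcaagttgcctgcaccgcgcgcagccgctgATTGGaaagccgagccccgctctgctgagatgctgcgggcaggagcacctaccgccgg
Psmb6: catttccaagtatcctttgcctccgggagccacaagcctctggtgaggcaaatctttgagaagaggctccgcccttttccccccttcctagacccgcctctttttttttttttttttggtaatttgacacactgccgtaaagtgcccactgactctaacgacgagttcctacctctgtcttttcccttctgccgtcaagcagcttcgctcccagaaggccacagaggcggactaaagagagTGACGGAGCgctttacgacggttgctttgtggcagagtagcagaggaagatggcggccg
Psme3: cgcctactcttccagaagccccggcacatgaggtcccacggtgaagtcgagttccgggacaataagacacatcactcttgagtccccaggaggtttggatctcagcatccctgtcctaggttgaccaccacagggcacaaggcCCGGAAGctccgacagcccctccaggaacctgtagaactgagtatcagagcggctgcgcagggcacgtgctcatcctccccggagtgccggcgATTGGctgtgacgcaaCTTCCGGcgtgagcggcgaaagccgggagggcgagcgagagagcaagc
Psmg1: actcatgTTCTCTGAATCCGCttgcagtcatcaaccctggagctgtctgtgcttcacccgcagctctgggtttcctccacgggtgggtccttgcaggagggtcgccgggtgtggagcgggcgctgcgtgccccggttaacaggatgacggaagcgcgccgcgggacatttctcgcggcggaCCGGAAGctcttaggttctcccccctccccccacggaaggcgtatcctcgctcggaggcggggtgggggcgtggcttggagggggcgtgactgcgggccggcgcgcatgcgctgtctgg

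The ETS word was searched because MED23 is a known coactivator partner of ETS family factors. It was found in 15 of the 39 windows of proteasome genes (38.5%), against 8.86% of all 32851 windows of the table. The genes that hold it include *Psma6*, *Psmc1*, *Psmd2*, *Psmd4*, *Psmd11*, *Psme4* and *Psmg3* beside *Psme3* and *Psmg1*. The interferon-response core, 2 copies of GAAA parted by any 2 bases, was in 5 windows (12.8%, against 3.44% of all windows), those of *Psmb3*, *Psmd4*, *Psmd9*, *Psme1* and *Psmg4*. The GAS word was in 3 windows (7.69%, against 8.3%), the antioxidant core in 22 (56.4%, against 41.3%) and CCAAT in 13 (33.3%, against 37.4%). The 14 genes with the ETS word had a median induction of 0.06 in MED23 null and 0.02 in control mice on the log2 scale, and the 23 genes with a window without it had 0.04 in MED23 null and 0.03 in control mice. These words are matches of letters on either strand, which may overlap each other, and not measured sites. The shares over all windows cover 27025 genes, which were not matched to the proteasome genes for expression or base content.

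With 50 added to each signal, the 44 proteasome genes stayed within 2-fold of mock after 3 h of αCD3 in every mouse. In plain signals 1 gene, *Psmd2*, passed 2-fold, with αCD3 to mock ratios of 0.372 in MED23 null replicate 2 and 0.374 in *Lck-Cre* replicate 1. In control mice, 0 of the 44 genes passed the test of induction, against 14 of all 9478 probe sets (0.148%), and 0 had an unadjusted p under 0.05, which 7.78% of all probe sets had (limma). The fitted log2 induction was above 0 for 22 genes and below 0 for 22, with a median of 0.0016, as over all probe sets (0.0017). It ran between -0.35 for *Psmd2* and 0.34 for *Psmd1*, which encode the large scaffold subunits of the 19S base. The median size of the difference, without its sign, was 0.08 against 0.16 over all probe sets. All 44 genes had a 95% interval of induction that lay within 2-fold in either direction, which 81.5% of all probe sets had. Here and below, the probe sets set against the 44 genes were not matched to them for signal. The part of signal level in these contrasts was not tested.

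In MED23 null mice, 0 of 44 genes passed the test of induction, against 3 of all probe sets (0.0317%). The log2 induction was above 0 for 27 genes and below 0 for 17, with a median of 0.05 against -0.02 over all probe sets. The 95% interval lay within 2-fold for 41 genes (64.7% of all probe sets), the exceptions being *Psmd1*, *Psmd2* and *Psme3*. *Psme3* was the 1 gene with an unadjusted p under 0.05 (5.36% of all probe sets). The plot of inductions by gene shows both groups around 0 in every class of subunit.

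**Figure D1:**
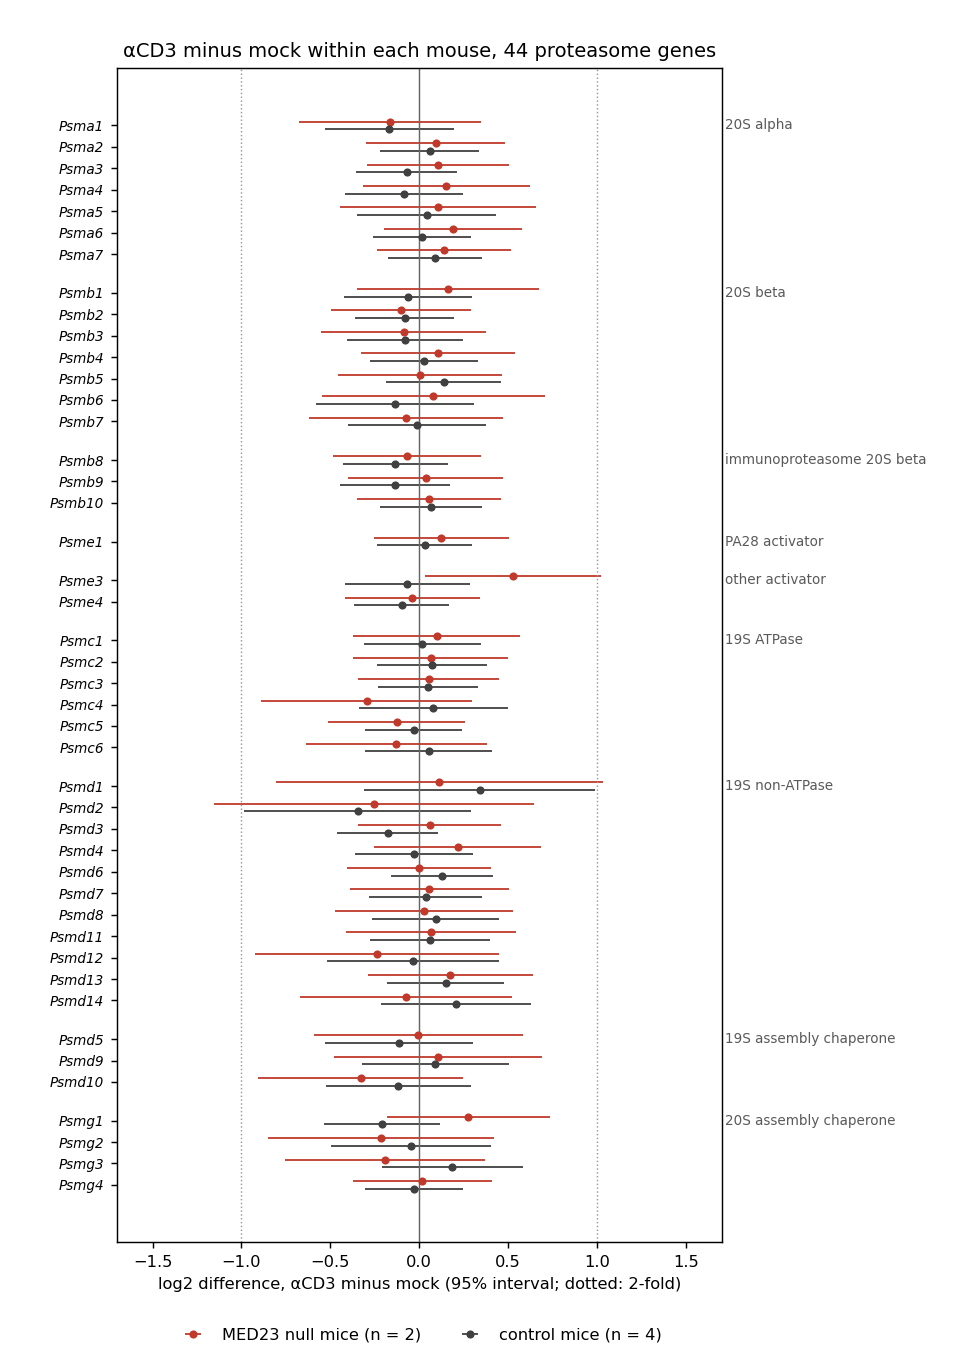
Log2 difference between αCD3 and mock signal for the 44 proteasome genes in MED23 null mice (red, n = 2) and control mice (dark grey, n = 4), with 95% intervals from limma as bars and dotted lines at 2-fold. The point estimates lie between -0.33 and 0.53 in MED23 null mice and between -0.35 and 0.34 in control mice.

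Mouse by mouse and with 50 added, 0 genes differed by 2-fold or more between αCD3 and mock in each of the 6 mice, where 5.44% to 13.3% of all probe sets did. In plain signals 12.3% to 21.2% of all probe sets did. In MED23 null mice the median log2 induction of the 44 genes was -0.01 in replicate 1 and 0.05 in replicate 2. In control mice it was 0.04 and -0.01 in the *Lck-Cre* mice and -0.12 and 0.06 in the *Med23flox/flox* mice. The lowest median belonged to the mouse whose αCD3 array stood apart, in which 26 of 44 genes were lower after αCD3. Without that mouse the mean induction of the other 3 control mice was above 0 for 29 genes and below 0 for 15, with a median of 0.04.

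**Figure D2:**
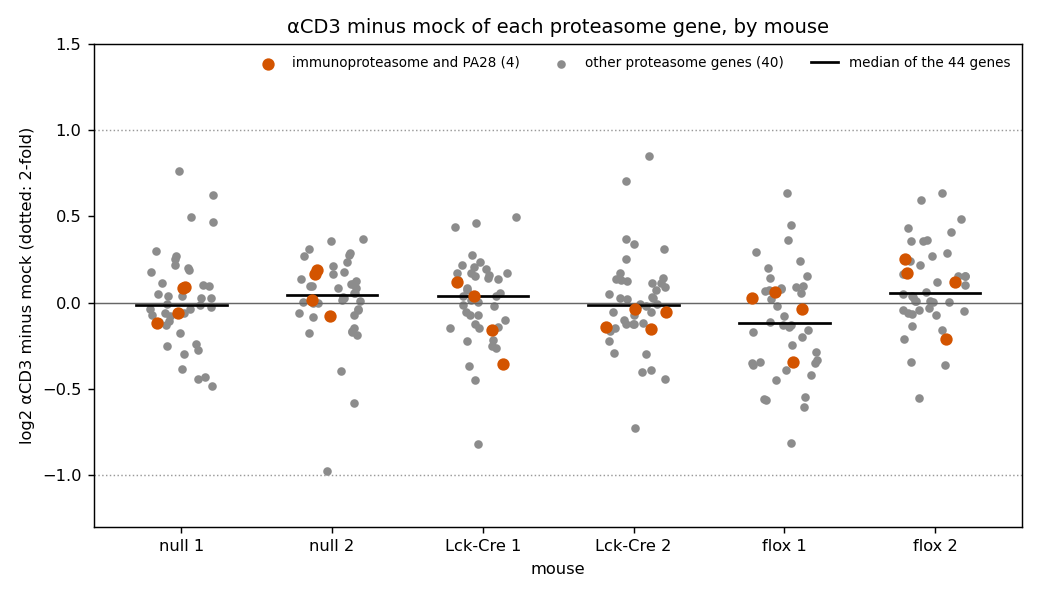
Log2 induction (αCD3 minus mock) of each of the 44 proteasome genes in each of the 6 mice, with the 3 immunoproteasome beta subunits and *Psme1* in orange and black bars at the medians. On this scale, log2(signal + 50), every point lies within 2-fold (dotted lines), and the lowest median is that of *Med23flox/flox* replicate 1 (-0.12).

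Few genes moved the same way in every mouse. In control mice, *Psmc3*, an ATPase of the 19S base, was higher after αCD3 in all 4, 1 of 44 genes where 9.16% of all probe sets did so. Its mean control induction was 0.05, and other *Psmc3* probe sets past the filter gave -0.08 and 0.15. *Psmd3*, a subunit of the 19S lid, and *Psme4*, which encodes the activator PA200, were lower in all 4, 2 of 44 genes against 8.68%. *Psme4* was lower in all 6 mice (2.17% of all probe sets), and 0 genes were higher in all 6 (3.61%). The log2 induction of *Psme4* was -0.04 in MED23 null and -0.10 in control mice. Its standard errors from limma, which draw on the spread of other probe sets as well, were 0.16 and 0.11. Neither induction passed the test.

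*Psmb8* encodes the immunoproteasome subunit that replaces PSMB5. In MED23 null mice it had signals of 6827 and 6722 after αCD3, against 7118 and 7106 after mock treatment. In control mice the signals were 6371, 6553, 5032 and 7072 after αCD3, against 7110, 7287, 6403 and 6518 after mock treatment. *Psmb8* was thus slightly lower after αCD3 in both MED23 null mice and in 3 of 4 control mice, and the genotypes overlapped in αCD3 and in mock signals. Its log2 induction was -0.07 in MED23 null mice (95% interval -0.49 to 0.35) and -0.13 in control mice (-0.43 to 0.16).

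*Psmb9* encodes the subunit that replaces PSMB6, and its promoter, printed above, is shared with the peptide transporter gene *Tap1* on the other strand. In MED23 null mice its signals were 1262 and 1285 after αCD3, against 1373 and 1120 after mock treatment. In control mice they were 1152, 1261, 1287 and 1040 after αCD3, against 1486, 1296, 1232 and 1210 after mock treatment. The mice of neither genotype moved 1 way only, and the MED23 null arrays lay within the range of the control arrays in αCD3 signals and overlapped it in mock signals. The log2 induction was 0.04 in MED23 null mice and -0.14 in control mice, and the difference of 0.17 (standard error 0.22, adjusted p = 0.9997, limma) did not pass the test.

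*Psmb10* encodes the subunit that replaces PSMB7. Its signals were 1608 and 1466 after αCD3, against 1505 and 1448 after mock treatment, in MED23 null mice. In control mice they were 1540, 1291, 1379 and 1397 after αCD3, against 1411, 1432, 1353 and 1164 after mock treatment. Both MED23 null arrays were above all 4 control arrays after mock treatment, although the nearest pair, 1448 and 1432, differed little. The log2 difference there was 0.14 (standard error 0.15, adjusted p = 0.863, limma), and after αCD3, where the groups overlapped, it was 0.13.

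*Psme1* encodes the alpha subunit of PA28. Its signals were 1752 and 2062 after αCD3, against 1648 and 1836 after mock treatment, in MED23 null mice. In control mice they were 1929, 1694, 1719 and 2313 after αCD3, against 1873, 1763, 1766 and 2045 after mock treatment. The αCD3 signal exceeded the mock signal in both MED23 null mice and in 2 of 4 control mice, and the genotypes overlapped in both treatments. The log2 induction was 0.12 in MED23 null and 0.03 in control mice.

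Of the constitutive catalytic subunits, *Psmb5*, which carries the chymotrypsin-like activity, had signals of 1372 and 1321 after αCD3, against 1453 and 1242 after mock treatment, in MED23 null mice. In control mice *Psmb5* had 1190, 1747, 1428 and 1612 after αCD3, against 1391, 1370, 1276 and 1329 after mock treatment. Its αCD3 signal exceeded its mock signal in 1 of 2 MED23 null and in 3 of 4 control mice, with a log2 induction of 0.0032 in MED23 null mice and 0.14 in control mice. A second *Psmb5* probe set of lower signal gave -0.34 in MED23 null and 0.41 in control mice, and the chosen one has a suffix that marks probes shared with similar sequences.

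*Psmb6*, which carries the caspase-like activity, had signals of 1254 and 1545 after αCD3, against 1228 and 1409 after mock treatment, in MED23 null mice. In control mice *Psmb6* had 1490, 1404, 1076 and 1496 after αCD3, against 1488, 1292, 1928 and 1341 after mock treatment. The lone low value was that of the αCD3 array that stood apart, and the mock array of the same mouse held the highest value. The log2 induction was 0.08 in MED23 null and -0.14 in control mice, and without that mouse it was 0.09 in the other 3 control mice.

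*Psmb7*, which carries the trypsin-like activity, had signals of 1884 and 1642 after αCD3, against 1832 and 1880 after mock treatment, in MED23 null mice. In control mice *Psmb7* had 1803, 2014, 1236 and 1962 after αCD3, against 1594, 1784, 1827 and 1759 after mock treatment. Again the lowest value was on the αCD3 array that stood apart, while 3 of 4 control mice were higher after αCD3. The log2 induction was -0.08 in MED23 null and -0.01 in control mice, and 0.17 in the control mice without that mouse.

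**Figure D3:**
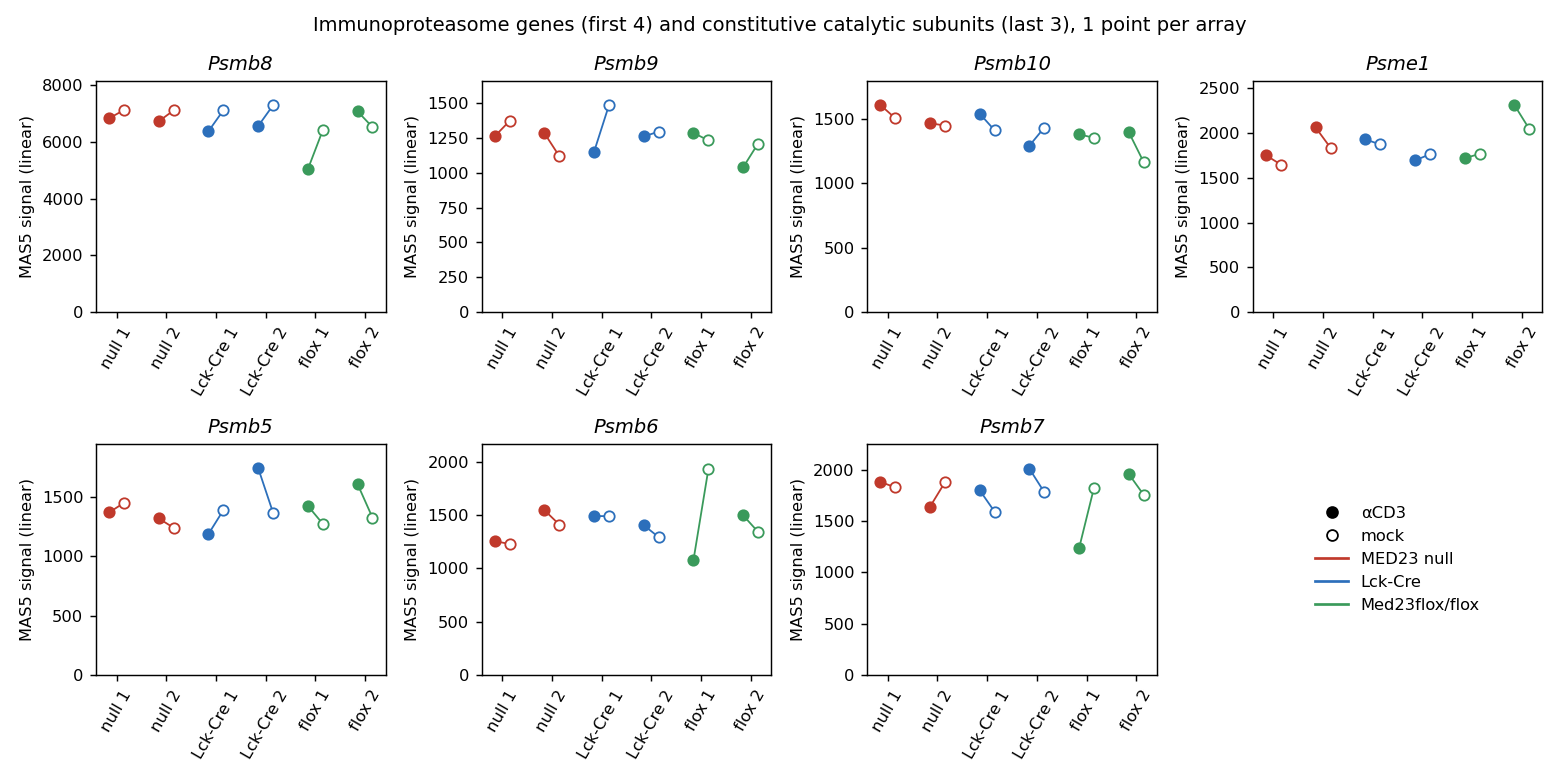
MAS5 signal (linear scale from 0) of the 3 immunoproteasome beta genes, *Psme1* and the 3 constitutive catalytic genes on each of the 12 arrays, with αCD3 as filled and mock as open points joined within each mouse. Lines within a mouse are short and point both ways, and the widest on the log2 scale (-0.81) is that of *Psmb6* in *Med23flox/flox* replicate 1, with 1076 after αCD3 against 1928 after mock treatment.

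The immunoproteasome set was set against the constitutive one by a score, the mean log2(signal + 50) of *Psmb8*, *Psmb9*, *Psmb10* and *Psme1* minus that of the 31 constitutive 20S and 19S genes. Only its differences between arrays are read, and no test was made of it. From mock to αCD3 the score moved by -0.0049 and 0.05 in MED23 null mice. In control mice it moved by -0.12 and -0.14 in the *Lck-Cre* mice and by 0.06 and -0.02 in the *Med23flox/flox* mice. MED23 null mice thus lay within the range of the control mice, and the widest shift of the balance between the sets was 0.14 on the log2 scale. Between genotypes, the score was higher in MED23 null than in control arrays by 0.09 after αCD3 and by 0.01 after mock treatment. After αCD3 all 4 immunoproteasome genes were above 0 in MED23 null minus control, from 0.0015 for *Psme1* to 0.13 for *Psmb10* with a median of 0.11, and 17 of 31 constitutive genes were above 0, with a median of 0.02. Against *Lck-Cre* alone all 4 immunoproteasome genes were above 0, and against *Med23flox/flox* alone 3 were, with *Psme1* at -0.07. The medians over all probe sets were -0.01 after αCD3 and 0.01 after mock treatment.

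After mock treatment, 0 of the 44 proteasome genes passed the test between MED23 null and control thymocytes, and 0 of all 9478 probe sets did (0.0%), with 1 proteasome gene and 701 probe sets (7.4%) at an unadjusted p under 0.05 (limma). The log2 difference was above 0 for 20 genes and below 0 for 24, with a median of -0.03. It ran from -0.40 for *Psme3* to 0.58 for *Psmg3*, and the 95% interval lay within 2-fold for 43 genes (72.1% of all probe sets), with *Psmg3* the exception. Both MED23 null arrays were above all 4 control arrays for 5 genes, *Psmb7*, *Psmb10*, *Psmd6*, *Psmd14* and *Psmg3* (9.27% of all probe sets). Both were below for 4 genes, *Psma4*, *Psmd3*, *Psmd11* and *Psmg1* (8.44%). With 44 genes, these counts are close to the shares over all probe sets.

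*Psmd14* encodes the deubiquitinase of the 19S lid, which cuts ubiquitin chains from substrates. After mock treatment it had signals of 1113 and 1058 in MED23 null, against 909, 720, 792 and 822 in control thymocytes. The groups did not overlap, and the log2 difference was 0.40 (standard error 0.15, adjusted p = 0.635, limma), with an unadjusted p of 0.0336. After αCD3 its signals were 1026 and 1030 in MED23 null, against 830, 1203, 704 and 1108 in control thymocytes. There the groups overlapped, and the log2 difference was 0.12 (standard error 0.25).

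*Psmg3* encodes an assembly chaperone of the 20S alpha ring. Its mock signals were 1049 and 1239 in MED23 null, against 867, 624, 1017 and 566 in control thymocytes. The groups did not overlap, with 1049 on the lower MED23 null array close to 1017 on the highest control array, and the log2 difference of 0.58 (standard error 0.26, adjusted p = 0.679, limma) was the widest among the 44 genes. After αCD3 the signals were 1211 and 810 in MED23 null, against 822, 820, 1088 and 738 in control thymocytes, and the groups overlapped. A second *Psmg3* probe set gave 0.91 after mock treatment and 0.07 after αCD3.

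*Psmd12*, another subunit of the lid, had mock signals of 666 and 476 in MED23 null, against 514, 450, 404 and 352 in control thymocytes, which overlapped. Its log2 difference was 0.37 (standard error 0.21). Against *Lck-Cre* alone it was 0.21 and against *Med23flox/flox* alone it was 0.52, so the control genotypes lay on either side of the pooled value.

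After αCD3, 0 of 44 genes passed between MED23 null and control thymocytes, as did 0 of all probe sets (0.0%), with 0 proteasome genes and 584 probe sets (6.16%) at an unadjusted p under 0.05 (limma). The log2 difference was above 0 for 28 genes and below 0 for 16, with a median of 0.03, and it ran from -0.31 for *Psmc4* to 0.27 for *Psmd2*. The 95% interval lay within 2-fold for 43 genes (65.7% of all probe sets), with *Psmd2* the exception. Both MED23 null arrays were above all 4 control arrays for 0 genes (6.9% of all probe sets) and below them for 1, the ATPase gene *Psmc5* (8.61%). Without the αCD3 array that stood apart they were above for 2 genes, *Psmb9* and *Psmd9* (11.7%), and below for 5, *Psma4*, *Psmc2*, *Psmc5*, *Psmd1* and *Psmd8* (12.7%).

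*Psmc4*, an ATPase of the 19S base, had signals after αCD3 of 61.0 and 123 in MED23 null, against 134, 111, 102 and 146 in control thymocytes. The signals overlapped, and the value rested on MED23 null replicate 1, without which the log2 difference was 0.0070. *Psmd11*, a lid subunit, had 1112 and 1553 in MED23 null, against 1435, 1667, 1422 and 1508 in control thymocytes, which overlapped. Its log2 difference was -0.19 (standard error 0.20), and 0.04 without MED23 null replicate 1. *Psme3ip1*, which is no subunit, had 774 and 818 in MED23 null, against 953, 907, 1038 and 818 in control thymocytes, and a log2 difference of -0.21.

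**Figure D4:**
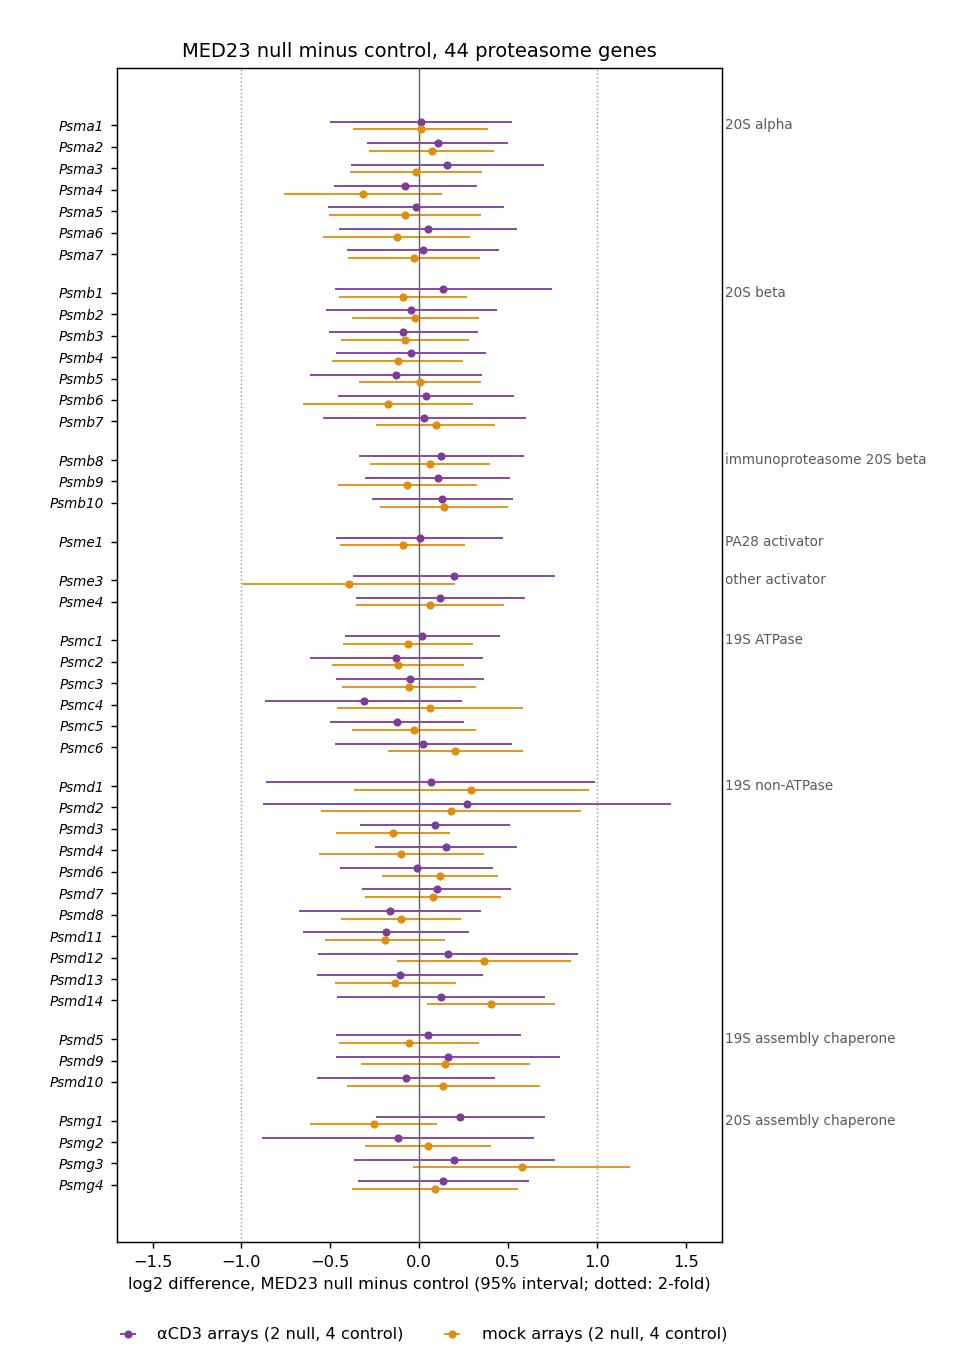
Log2 difference between MED23 null and control signal for the 44 proteasome genes after αCD3 (purple) and after mock treatment (orange), with 95% intervals from limma as bars and dotted lines at 2-fold, for 2 MED23 null and 4 control arrays in each treatment. The bars of 43 of 44 genes stay within 2-fold in each treatment, the exceptions being *Psmd2* after αCD3 and *Psmg3* after mock treatment.

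Whether induction itself differed was tested as the MED23 null minus the control induction. Here 0 of 44 proteasome genes and 0 of all probe sets passed (0.0%), with 0 proteasome genes and 486 probe sets (5.13%) at an unadjusted p under 0.05 (limma). The difference was above 0 for 27 genes and below 0 for 17, with a median of 0.02 against -0.02 over all probe sets, and its 95% interval lay within 2-fold for 36 genes (50.5% of all probe sets). Both MED23 null mice were above all 4 control mice for 4 genes, *Psma3*, *Psmd3*, *Psme3* and *Psmg1* (6.06% of all probe sets), and below them for 0 genes (7.42%). Without the mouse that stood apart the same 4 genes were above (9.89%), and *Psmb7*, *Psmc4*, *Psmc6* and *Psmd8* were below (11.3%).

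*Psme3* encodes PA28 gamma, a nuclear activator of the 20S core, and is described array by array because of its values. In MED23 null mice its signals were 463 and 580 after αCD3, against 253 and 466 after mock treatment. In control mice they were 456, 442, 333 and 588 after αCD3, against 400, 461, 453 and 585 after mock treatment. *Psme3* was higher after αCD3 in both MED23 null mice, most in replicate 1, whose mock signal was the lowest of all 12 arrays, and control mice moved both ways. The log2 induction was 0.53 in MED23 null mice (standard error 0.21, adjusted p = 0.903, limma) and -0.07 in control mice. The difference of 0.59 (95% interval -0.01 to 1.20) did not pass the test, and without MED23 null replicate 1 it was 0.36.

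*Psmg1* encodes the chaperone that pairs with PSMG2 to start the alpha ring. Its signals were 695 and 504 after αCD3, against 478 and 483 after mock treatment, in MED23 null mice. In control mice they were 437, 481, 507 and 572 after αCD3, against 579, 527, 664 and 571 after mock treatment. Both MED23 null mice were higher after αCD3, whereas 3 of 4 control mice were lower and the other was level. After mock treatment both MED23 null arrays were below all control arrays. The difference in induction was 0.49 (95% interval -0.08 to 1.05, adjusted p = 0.971, limma), and the log2 difference between genotypes was 0.23 after αCD3 and -0.26 after mock treatment. Without MED23 null replicate 1 the difference after αCD3 was 0.02 and that in induction 0.27.

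*Psmd3* had signals of 2010 and 2131 after αCD3, against 1959 and 2008 after mock treatment, in MED23 null mice. In control mice *Psmd3* had 2072, 1646, 2072 and 2021 after αCD3, against 2104, 2194, 2267 and 2265 after mock treatment. It was higher after αCD3 in both MED23 null mice and lower in all 4 control mice, although MED23 null replicate 1 and *Lck-Cre* replicate 1 were nearly level. The difference in induction was 0.24 (standard error 0.21, adjusted p = 0.9997, limma).

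**Figure D5:**
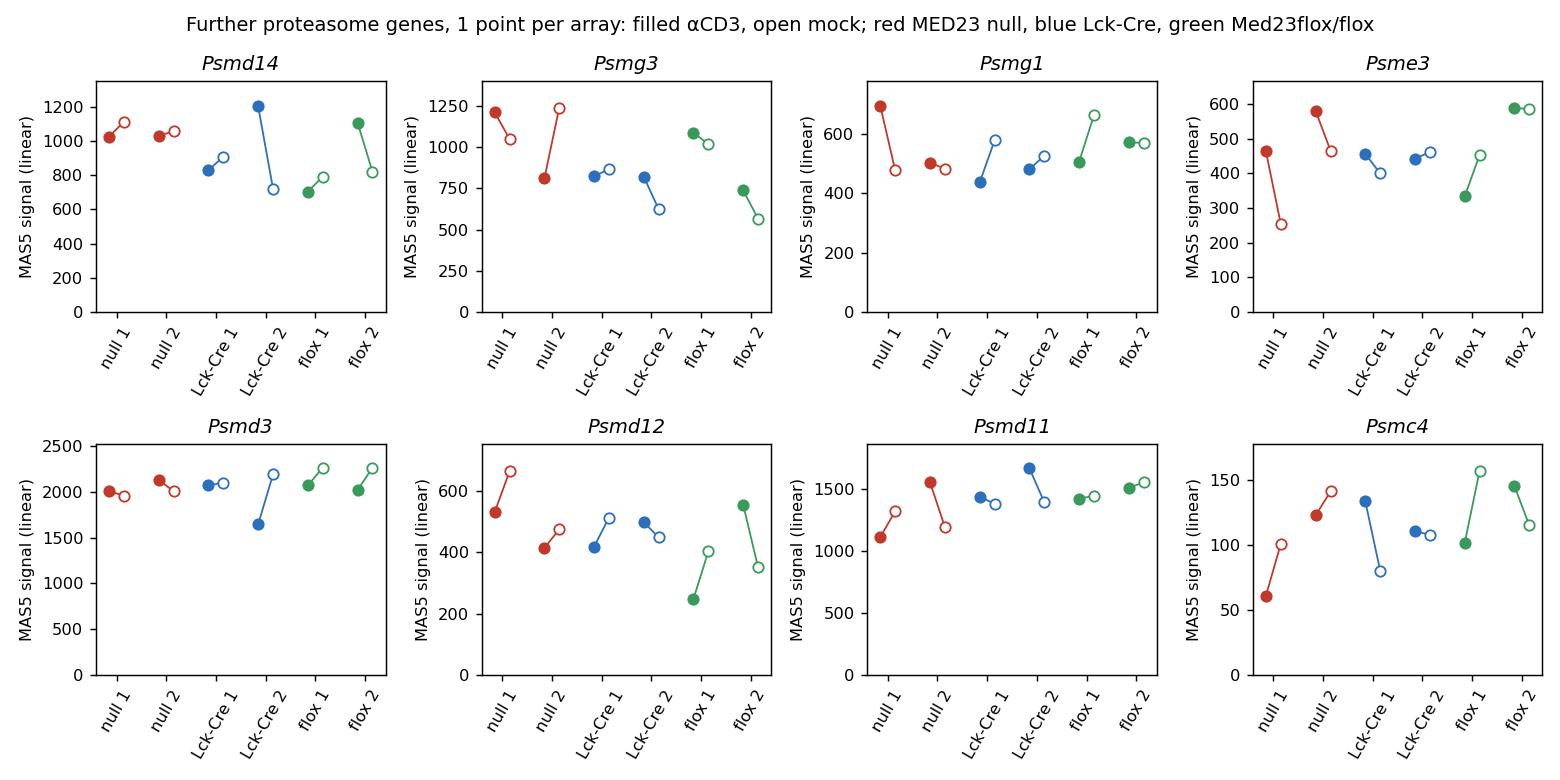
MAS5 signal (linear scale from 0) of 8 further proteasome genes on each of the 12 arrays, with αCD3 as filled and mock as open points joined within each mouse. For *Psmd14* and *Psmg3* the open MED23 null points lie above all open control points, and for *Psmg1* and *Psme3* the filled point lies above the open one in both MED23 null mice.

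*Psmd1* and *Psmd2* had the largest inductions, of opposite sign, in control mice. *Psmd1* had signals of 594 and 591 after αCD3, against 368 and 794 after mock treatment, in MED23 null mice. In control mice *Psmd1* had 635, 752, 271 and 759 after αCD3, against 455, 395, 424 and 471 after mock treatment. In 3 of 4 control mice the αCD3 signal exceeded the mock signal, and the control induction of 0.34 became 0.64 (adjusted p = 0.593, limma) without the mouse that stood apart. *Psmd2* had 164 and 67.5 after αCD3, against 105 and 181 after mock treatment, in MED23 null mice. In control mice *Psmd2* had 42.5, 32.0, 191 and 114 after αCD3, against 114, 61.3, 155 and 161 after mock treatment. Its arrays split by control genotype, so that MED23 null minus *Lck-Cre* after αCD3 was 0.87 (standard error 0.36, adjusted p = 0.9986, limma) and MED23 null minus *Med23flox/flox* was -0.33. Over the 44 genes, the coefficient of variation between the 4 control arrays had a median of 15.7% after αCD3 and 9.71% after mock treatment, against 22.8% and 19.7% over all probe sets, and *Psmd2* had the highest (77.8% and 37.4%). The probe sets in this contrast were not matched for signal.

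By class of subunit, the 7 genes of the 20S alpha ring had a median log2 induction of 0.11 in MED23 null and 0.02 in control mice, and all 7 were above 0 in the difference in induction, which ran from 0.0033 for *Psma1* to 0.24 for *Psma4*. The median of all probe sets in that difference was -0.02, and their share above 0 was not counted. Without the mouse that stood apart, the control induction of *Psma1* was -0.11, against -0.16 in MED23 null mice. Not all 7 genes then stayed above 0. Of the 7 constitutive genes of the 20S beta ring, with all mice, 3 were above 0 in the difference in induction, with a median of -0.0092. The 6 ATPases of the 19S base had medians of -0.04 in MED23 null and 0.05 in control mice. The 11 other 19S subunits had 0.06 in both, and in MED23 null mice the highest was *Psmd4*, a ubiquitin receptor, at 0.22. The 3 chaperones of 19S assembly, *Psmd5*, *Psmd9* and *Psmd10*, had -0.0060 in MED23 null and -0.11 in control mice. The 4 chaperones of 20S assembly, *Psmg1* to *Psmg4*, had -0.09 in MED23 null and -0.04 in control mice.

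Against each control genotype alone, 0 of 44 genes passed in each comparison, as did 0 of all probe sets (0.0%), and 0 proteasome genes had an unadjusted p under 0.05 (limma). Between MED23 null and *Lck-Cre* thymocytes, that unadjusted share over all probe sets was 4.83% after αCD3, 7.3% after mock treatment and 4.32% in the difference in induction. The 95% interval lay within 2-fold for 39 genes after αCD3 (57.8% of all probe sets), 40 after mock treatment (64.8%) and 31 in the difference in induction (39.8%). Between MED23 null and *Med23flox/flox* thymocytes, the unadjusted share was 7.72% after αCD3, 7.34% after mock treatment and 6.4% in the difference in induction. The interval lay within 2-fold for 40 genes after αCD3 (53.1%), 40 after mock treatment (63.7%) and 32 in the difference in induction (35.9%). *Psmd14* after mock treatment was alike against both, with log2 differences of 0.40 against *Lck-Cre* and 0.41 against *Med23flox/flox* (standard error 0.19 each), whereas *Psmd2* and *Psmd12* were not.

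Within a control genotype, 0 of 44 genes passed the test of induction in *Lck-Cre* mice (0.0317% of all probe sets), with 0 at an unadjusted p under 0.05 (6.06%, limma) and 42 intervals within 2-fold (65.7%). In *Med23flox/flox* mice 0 passed (0.0211%), with 0 at an unadjusted p under 0.05 (9.46%) and 44 intervals within 2-fold (60.4%). Between the control genotypes after mock treatment, *Lck-Cre* minus *Med23flox/flox*, 0 of 44 genes passed (0.0%), with 0 at an unadjusted p under 0.05 (5.64%) and 43 intervals within 2-fold (66.4%). The log2 differences ran from -0.62, for *Psmd2*, to 0.38.

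Of the genes around the proteasome, 20 of 27 listed genes of antigen processing and interferon response were tested, and 0 passed in each of the comparisons of induction and genotype, with 2 at an unadjusted p under 0.05 in MED23 null induction (5.36% of all probe sets), 4 in control induction (7.78%), 2 between genotypes after αCD3 (6.16%) and 3 after mock treatment (7.4%, limma). *Irf1*, a transcription factor that binds interferon-response elements, had signals of 2042 and 1185 after αCD3, against 603 and 715 after mock treatment, in MED23 null mice. In control mice *Irf1* had 2552, 1889, 1648 and 1587 after αCD3, against 680, 659, 764 and 525 after mock treatment. It was higher after αCD3 in all 6 mice without overlap, by 1.19 in MED23 null (adjusted p = 0.548, limma) and 1.46 in control mice (adjusted p = 0.0663) on the log2 scale. The control induction of *Irf1* passed the test under 3 other settings, with adjusted p-values from 0.00868 to 0.0383 (limma), and did not pass under the rest. The smallest of these came from the fit with no replicate block, which drops the pairing of αCD3 and mock arrays by mouse. *Tap1*, the neighbour of *Psmb9*, had an induction of 0.10 in MED23 null and -0.02 in control mice. *Socs1*, an inhibitor of cytokine signalling, had a log2 difference between MED23 null and control cells of -0.83 after αCD3 (adjusted p = 0.569, limma) and -0.73 after mock treatment (adjusted p = 0.388).

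Of 38 listed genes of the ubiquitin pathway and proteasome partners, 20 were tested and 0 passed in each of these comparisons, with 0 at an unadjusted p under 0.05 in induction in MED23 null (5.36% of all probe sets) and in control mice (7.78%), 0 between genotypes after αCD3 (6.16%) and 1 after mock treatment (7.4%), the ubiquitin ligase gene *Nedd4*, at a log2 difference of -0.48. The proteasome maturation factor gene *Pomp* had an induction of 0.38 in MED23 null mice (standard error 0.23) and of 0.13 in control mice (0.16), and the median of the list was -0.0010 in MED23 null and -0.0041 in control induction.

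Several genes rest on 1 probe set among others that differ. Of the 44 genes, 8 had more than 1 probe set, and in all 8 another set gave the other sign in at least 1 of the inductions and genotype differences. The sign differed in 14 of 32 such values among the sets that passed the filter, which covered 6 genes, *Psmb1*, *Psmb4*, *Psmb5*, *Psmc3*, *Psmd11* and *Psmg3*. In *Psmd11* the third set gave 0.42 in MED23 null minus control after both treatments, where the chosen set gave -0.19. Chosen sets other than that of *Psmb5* carry a suffix too, f for *Psma3*, *Psmb4*, *Psmb7*, *Psmc3* and *Psmd12*, r for *Psmd9* and *Psmg3*. What these suffixes mean for the values was not tested. The ratio of signal from the 3' and 5' ends of the actin message, a sign of RNA length, was 1.90 and 1.61 on the MED23 null and 1.35 to 1.41 on the control arrays after αCD3, and 1.44 and 1.63 against 1.35 to 1.60 after mock treatment, and its part in the values was not tested.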

How the data were processed

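Intensities were deposited as MAS5 signals per probe set on a linear scale, computed by the authors from the A array of the Affymetrix mouse U74 set, Version 2, and the version of MAS5 is not given in the sources used here. The study worked in Spotfire with signals scaled by trimmed mean to a baseline array. Each array was rescaled here to the 2% trimmed mean of *Lck-Cre* replicate 1, mock (factors 0.999967 to 1.00006), 50 was added and log2 was taken. The array holds 12488 probe sets including 66 control sets, which were dropped, and 9478 with a mean signal of at least 100 in 1 or more of 6 conditions were fitted with limma 3.58.1 in R 4.3.3 (lmFit, eBayes, Benjamini-Hochberg). Python 3.11.15 was used for the rest.

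Induction was the difference within each mouse, which is a pairing by mouse, since both cultures of a mouse carry its number. After group means were taken off, arrays of the same mouse correlated at 0.06103 to 0.149, and arrays of different mice with the same number at -0.01101 to 0.1217, so the pairing rests on the labels. Genotypes were compared within each treatment, pooled and for each control genotype, in 14 comparisons. For arrays, their number limits the precision. On simulated data with planted differences, control induction and MED23 null minus control after mock treatment were checked, and the other comparisons were not.

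Symbols come from the platform annotation. Signals in every array are given for the immunoproteasome genes, their constitutive counterparts and up to 4 genes with the largest statistics in control induction and in each genotype comparison. *Psme3* was added to these after its values were seen, and *Tap1* was named as the neighbour of *Psmb9*. From the other lists, genes among the 4 largest log2 differences of a comparison are named. Proteasome members and all gene lists were chosen with earlier results of these data known. Alternatives were other pseudocounts, filters, scalings and probe sets, a variance trend, leaving out each mouse, and the fit with and without the replicate block.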

Additional observations from a re-analysis of the deposited data

Results flagged for a closer look

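Outlying values were looked for in 54 groups of 4 control arrays or mice, where chance marks about 1 in 20 groups, and 4 were found. In *Psmb6* the log2 induction of *Med23flox/flox* replicate 1 was -0.8132, against 0.001309 to 0.1524 in the other control mice, and in *Psmb7* it was -0.545 in the same mouse, against 0.1538 to 0.173. Both involve the αCD3 array that stood apart. In *Psmd3* the log2(signal + 50) of *Lck-Cre* replicate 2 after αCD3 was 10.73, against 11.02 to 11.05 on the other control arrays. In *Psme3ip1*, which is no subunit, the mock array of *Lck-Cre* replicate 2 had 10.19, against 9.758 to 9.791.

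*Psmd3* moved up with αCD3 in both MED23 null mice (0.03569 and 0.08341) and down in all 4 control mice (-0.4037 to -0.0218). The difference in induction of 0.238 (standard error 0.2066, adjusted p = 0.9997, limma) did not pass the test.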

How the results depend on the processing

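The count of proteasome genes past the threshold stayed at 0 in all 14 comparisons under each alternative that was run. These were pseudocounts of 16 and 100, no scaling, quantile normalization, no filter and a filter of 200, the mean of all probe sets of a gene, a variance trend and each mouse left out in turn (0 to 0). It was also 0 with the replicate block between genotypes and 0 with no replicate block in the induction fits. Over the same alternatives, 1340 values of the 18 proteasome-named genes described by array were recomputed in the inductions, the difference in induction and both genotype comparisons. Of these, 0 passed, the smallest adjusted p was 0.489 (limma), and 67 had the other sign. Among those 67, the main values reached 0.38 and the alternative values 0.63 in size. *Psmd1* after mock treatment ranged from -0.22 (without MED23 null replicate 2) to 0.80 (without MED23 null replicate 1), against 0.29 with both MED23 null mice, and the cause was not tested. *Irf1* in control induction passed with a pseudocount of 100 (1.40), a filter of 200 and no replicate block (1.46 each), and not under the other settings. The fit with no replicate block drops the pairing by mouse. The control inductions of *Psmb6* and *Psmb7* turned to 0.09 and 0.17 without *Med23flox/flox* replicate 1, and *Psmc4* after αCD3 turned to 0.0070 without MED23 null replicate 1.

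The immunoproteasome minus constitutive score ranged over the alternatives from 0.06 to 0.12 for MED23 null minus control after αCD3 and from -0.02 to 0.06 after mock treatment, and from -0.0090 to 0.05 for induction in MED23 null and -0.09 to -0.03 in control mice. With 2 MED23 null mice, intervals reach beyond 2-fold for 8 of the 44 genes in the difference in induction, so a 2-fold difference is not excluded for these genes. Intervals within 2-fold do not exclude smaller differences in the other genes. Genotype comparisons of 1 treatment have 1 array per mouse, and arrays of different mice share only a number.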
